A study of Arabidopsis thaliana with 12 samples.

Results

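The genes encoded by the chloroplast genome were examined in Arabidopsis seedlings given supplemental far-red light, a warmer temperature, or both. A gene was included where a probe set of the array was annotated to it alone and it carries a locus tag of the chloroplast genome. This gave 69 genes with 1 probe set each, out of 22746 probe sets tested and 13350 genes with a probe set of their own. They were 15 genes of photosystem II, 7 of photosystem I and its assembly, 6 of the cytochrome b6f complex, 6 of the ATP synthase, 10 of the NADH dehydrogenase-like complex (NDH), rbcL of Rubisco, 7 and 8 of the large and small ribosomal subunits, 4 of the RNA polymerase, and 5 others. Other genes of this genome are not analysed here.

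All plants were wild type of the Columbia ecotype, spent 9 days at 22 °C under white light without a dark period, and had their aerial parts collected at 10 days of age after 24 h of treatment. The 4 groups were white light with supplemental far-red (WFR) at 26 °C, white light alone (WL) at 26 °C, WFR at 22 °C and WL at 22 °C, with 3 arrays each that the labels call biological replicates. The WL group at 22 °C thus stayed in its growth conditions. Expression was read on single-colour arrays from the RNA of whole shoots, as 1 log2 value per probe set and array.

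The chloroplast genome codes for the cores of the photosynthetic complexes, and the nucleus supplies the remaining subunits. Its genes are read by a plastid-encoded polymerase of bacterial type, which needs nuclear sigma factors, and by nuclear-encoded polymerases of phage type, mostly as transcripts that carry several genes and are later cut and processed. Supplemental far-red light lowers the ratio of red to far-red light, a signal of neighbouring plants that phytochromes sense, and phytochromes also take part in the response to warmth. Chloroplast transcripts mostly lack the stable poly(A) tails of nuclear mRNAs, while the RNA here was primed with oligo-dT according to the labels' protocols. The values therefore rest on the part of each transcript pool that this priming reached, a share that was not measured.

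Array medians over all probe sets lay between 6.91 and 7.01. The leaf markers RCA and PRK were bright on all 12 arrays, at 14.39 to 14.51 for RCA and 13.31 to 13.62 for PRK. None of the 10 root markers written had a named probe set. The tissue label was thus checked by these 2 leaf genes alone. The difference between 3′ and 5′ control probe sets was at most 1.39 for actin, -0.20 to 0.21 for GAPDH and -0.05 to 0.18 for ubiquitin over the 12 arrays. Values of the 69 members ran from 4.71 to 14.45, and 5 members averaged 14 or more, close to the brightest signals of the array.

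The chloroplast genes as a whole differed little between the groups. Their mean log2 value was 11.14 ± 0.04 in WFR at 26 °C, 11.03 ± 0.07 in WL at 26 °C, 11.08 ± 0.03 in WFR at 22 °C and 10.99 ± 0.13 in WL at 22 °C (SD, n = 3 each). A change in the number or size of chloroplast-bearing cells and a change in RNA per cell cannot be told apart in whole shoots. On the 3 WL arrays at 22 °C the mean was 10.84, 11.07 and 11.07, and on those at 26 °C 11.04, 11.10 and 10.96, so that each WL group held at least 1 array below all 6 WFR arrays. Replicate 1 of WL at 22 °C was the lowest of all 12 arrays for 27 of the 69 genes, and the lowest of its group for 48, where 39.1% of all probe sets had that array lowest in its group. Replicate 3 of WL at 26 °C was the lowest of the 12 for a further 10 genes, and replicate 1 of that group for 9. Within the groups at 26 °C, replicate 3 of WFR was lowest for 41 of the 69 genes, against 27.1% of all probe sets. Replicate 3 of WL was lowest in its group for 35, against 36.1%. The control probe set for 25S ribosomal RNA read 12.04 on replicate 1 of WL at 22 °C and 12.34 to 12.73 on the other 11 arrays.

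**Figure D1:**
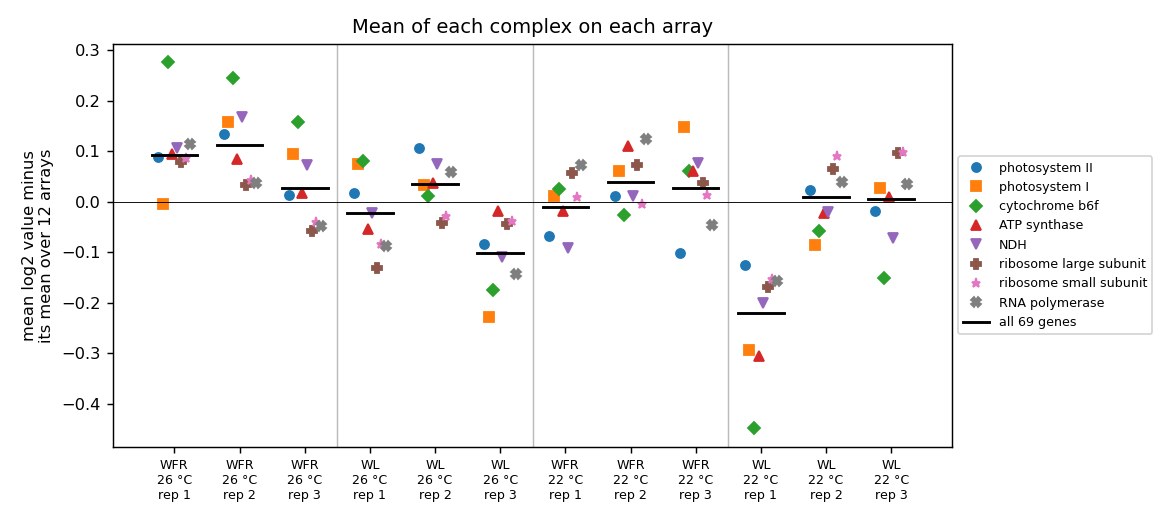
Mean log2 value of each complex on each array, minus its mean over the 12 arrays (symbols: complexes; black bars: all 69 genes; no error is drawn). The mean of all 69 genes is lowest on replicate 1 of WL at 22 °C, where the cytochrome b6f symbol is the farthest below 0, and next lowest on replicate 3 of WL at 26 °C.

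Far-red light changed a few chloroplast transcripts at 22 °C: petD and ndhE rose and psbM fell. These were 3 of 69 genes (4.35%) called by limma at an adjusted p under 0.05, against 0.659% of all probe sets. The groups did not overlap for 12 genes in the higher direction (17.4%, against 9.16% of all probe sets) and for 5 in the lower direction (7.25%, against 7.52%). The median difference, WFR minus WL, was 0.02 over the 69 genes and 0.00 over all probe sets, with 37 genes above 0 (53.6%, against 50.8%). At an unadjusted p under 0.05, 15 genes were higher and 5 lower, 21.7% and 7.25% against 7.85% and 5.38% of all probe sets. The median difference had no settled direction. It lay between -0.05 and 0.04 under the other scalings and between -0.02 and 0.06 with 1 array left out. The lowest of these last came without replicate 1 of WL at 22 °C. That array had the lowest chloroplast mean, so leaving it out lowers the mean far-red difference by construction.

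At 26 °C no chloroplast gene passed the far-red test, where 0.0879% of all probe sets did, 0.0835% higher and 0.0044% lower (limma). At an unadjusted p under 0.05 there were 10 genes higher and 1 lower, 14.5% and 1.45% against 4.49% and 2.32% of all probe sets. WFR lay above WL without overlap for 13 genes (18.8%, against 9.17%) and below it for 1 (1.45%, against 5.17%). The median difference was 0.06, with 50 of 69 genes above 0 (72.5%, against 56.7% of all probe sets). The far-red differences at 26 and at 22 °C, which rest on separate arrays, were both above 0 for 32 genes, both below 0 for 14 and of opposite sign for 23. With 50 genes above 0 at 26 °C and 37 at 22 °C, part of this agreement follows from those counts alone. The matching share over all probe sets was not counted.

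Averaged over both temperatures, petD, ndhE, ndhH and rpoB were called higher in far-red light and no chloroplast gene was called lower. These 4 genes were 5.8% of the members, against 1.12% of all probe sets called in this comparison and 0.827% called higher. For 5 genes, ndhE, ndhH, accD, atpF and ycf4, all 6 WFR arrays lay above all 6 WL arrays (7.25%, against 0.906% of all probe sets). None lay wholly below, against 0.264%. Unadjusted p-values under 0.05 were found for 19 higher and 6 lower genes (27.5% and 8.7%, against 9.38% and 5.13%), and 46 of 69 lay above 0 (66.7%, against 54.1%).

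The warmer temperature gave no call in WL, against 0.611% of all probe sets (limma). At an unadjusted p under 0.05, 6 genes were higher at 26 °C and 4 lower, 8.7% and 5.8% against 6.29% and 6.55% of all probe sets. The groups were apart for 1 gene in the higher and 4 in the lower direction (1.45% and 5.8%, against 8.31% and 10.3%), and 42 of 69 lay above 0 (60.9%, against 45.4%). In WFR, psbM and psbE rose with warmth, 2.9% of the members against 1.1% of all probe sets, of which 0.558% were called higher and 0.541% lower. A fit of the compared groups alone ended the 5 calls made in single comparisons (adjusted p from 0.0575 to 0.132). In WFR 8 genes were higher and 1 lower at an unadjusted p under 0.05 (11.6% and 1.45%, against 6.96% and 7.18%). There 44 of 69 lay above 0 (63.8%, against 51.2%), and 12 genes lay higher and 3 lower without overlap (17.4% and 4.35%, against 9.75% and 9.67%). Averaged over both lights, psbE and ndhD rose and rpl36 fell, 4.35% of the members against 5.39% of all probe sets (2.92% higher and 2.48% lower), so that the share was near the background. No chloroplast gene and none of all probe sets passed the test of the interaction, the far-red difference at 26 °C minus that at 22 °C (limma, 0% of probe sets). At an unadjusted p under 0.05, psbM and rps19 had a higher difference at 26 °C and no gene a lower one (2.9% and 0%, against 3.07% and 2.44% of all probe sets), and 35 of 69 lay above 0 (50.7%, against 53%).

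**Figure D2:**
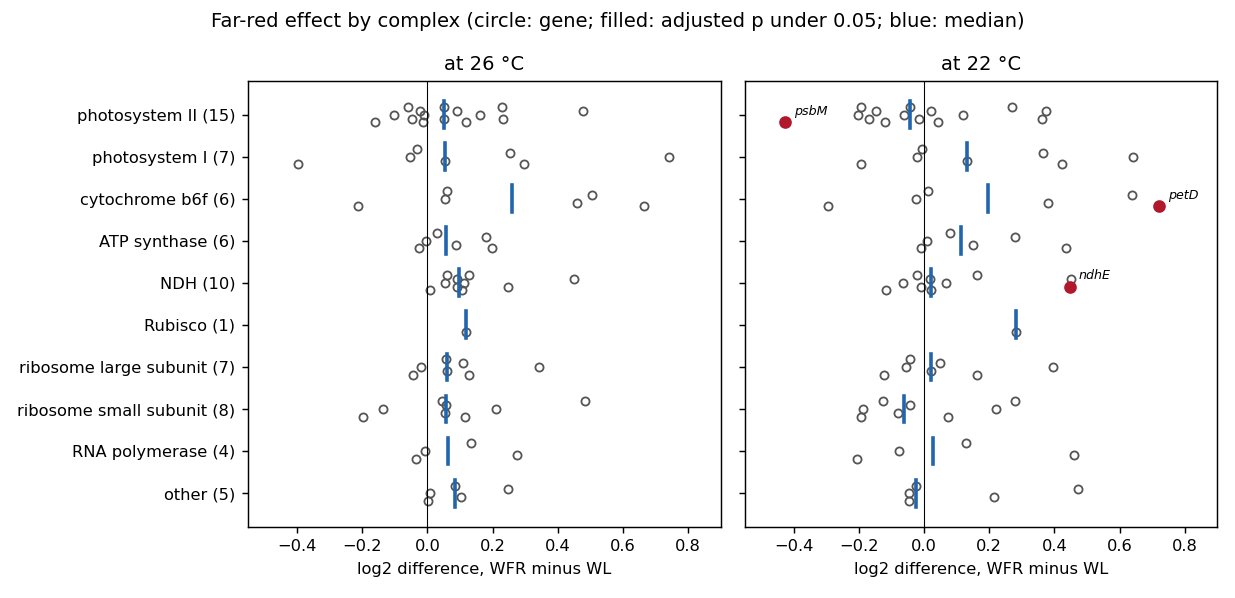
Log2 difference, WFR minus WL, of each of the 69 genes at 26 °C (left) and 22 °C (right), arranged by complex with the number of genes in parentheses. Filled circles mark adjusted p under 0.05 (none at 26 °C; psbM, petD and ndhE at 22 °C) and blue bars mark medians; the medians of the cytochrome b6f genes, 0.26 and 0.20, lie to the right of most others.

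Photosystem II, which splits water, held a gene called for a light and for a temperature comparison, psbM, which codes for a small subunit at the interface of its dimer. The psbM log2 values were 14.11, 14.24 and 14.02 in WFR at 26 °C and 14.02, 14.10 and 14.10 in WL at 26 °C. In WFR at 22 °C they were 13.62, 13.82 and 13.66, and in WL at 22 °C 14.18, 14.16 and 14.05. The WFR arrays at 22 °C thus lay apart, below the other 9, which overlapped. At 22 °C psbM fell by 0.43 ± 0.0763 (SE) in far-red light (limma, adjusted p = 0.027), to 0.744 of the WL level, while at 26 °C the difference was 0.05 (adjusted p = 0.946). In WFR it rose by 0.42 ± 0.0763 with warmth (adjusted p = 0.019), a comparison that uses the same WFR arrays at 22 °C, and in WL the difference was -0.05. The difference between the far-red effects was 0.48 ± 0.108 (limma, adjusted p = 0.902), so that the interaction was not called.

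The psbM values sat near the bright end of the array, where differences can be compressed. The far-red call was lost without replicate 1 or 2 of WL or replicate 1 or 3 of WFR at 22 °C (adjusted p up to 0.113), and the warmth call without replicate 1 or 3 of WFR at 22 °C or replicate 1 or 2 of WFR at 26 °C (up to 0.0989) or with each array's chloroplast mean subtracted (0.111).

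Another photosystem II gene, psbE, codes for the alpha subunit of cytochrome b559. Its log2 values were 12.14, 12.20 and 12.16 in WFR and 12.19, 12.29 and 12.20 in WL at 26 °C. At 22 °C they were 11.76, 11.96 and 11.76 in WFR and 11.97, 12.09 and 11.94 in WL. All 6 arrays at 26 °C, from 12.14 to 12.29 with a median of 12.20, lay above all 6 at 22 °C, from 11.76 to 12.09 with a median of 11.95. The average rise with warmth was 0.28 ± 0.0517, or 1.22-fold (limma, adjusted p = 0.00708). In WFR alone psbE rose by 0.34 ± 0.0731 (adjusted p = 0.0441), and in WL the difference was 0.23 (0.186). The average rise was called without any 1 of the 12 arrays, but not once each array's chloroplast mean was subtracted (adjusted p = 0.0603). The call in WFR was lost without any of the 6 arrays at 26 °C, replicate 1 or 3 of WFR at 22 °C or replicate 2 of WL at 22 °C (up to 0.153), and with each array's chloroplast mean subtracted (0.211).

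The 15 photosystem II genes averaged 11.52 ± 0.06 in WFR and 11.46 ± 0.10 in WL at 26 °C, and 11.39 ± 0.06 in WFR and 11.41 ± 0.08 in WL at 22 °C (SD, n = 3 each). Most shared the sign of psbE for warmth. In WFR, 14 of the 15 lay above 0, with a median of 0.11, and 6 lay higher without overlap, where 51.2% of all probe sets lay above 0 and 9.75% lay higher without overlap. In WL 9 of 15 lay above 0, against 45.4% of all probe sets, with a median of 0.08, or 0.01 without replicate 1 and 0.04 without replicate 2 of WL at 26 °C. The far-red medians, 0.05 at 26 °C and -0.04 at 22 °C, had no settled direction, since each changed sign when 1 array was left out (to -0.02 at 26 °C and to 0.00 at 22 °C). The psbA gene codes for the D1 protein of the reaction centre. It had log2 values of 10.95, 11.25 and 11.02 in WFR and 10.92, 10.87 and 10.74 in WL at 26 °C, without overlap, and of 10.99, 11.11 and 11.10 in WFR and 10.60, 10.96 and 10.83 in WL at 22 °C, again without overlap. Neither far-red difference of psbA was called, at 0.23 ± 0.0988 at 26 °C and 0.27 ± 0.0988 at 22 °C (limma, adjusted p = 0.672 and 0.259). The gene of the partner D2, psbD, had 10.66, 10.77 and 10.80 in WFR and 10.85, 10.68 and 10.36 in WL at 26 °C, against 10.53, 10.72 and 10.72 in WFR and 10.54, 10.47 and 10.60 in WL at 22 °C, with overlap in every comparison. Its differences ran from 0.09 to 0.12 and none was called.

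Photosystem I, which reduces ferredoxin, had no called gene. Its genes averaged 11.04 ± 0.08 in WFR and 10.91 ± 0.17 in WL at 26 °C, and 11.03 ± 0.07 in WFR and 10.83 ± 0.16 in WL at 22 °C (SD, n = 3 each). The psaA gene, for a reaction centre protein, was the most variable member within groups, with an SD of 0.60 against a median of 0.13 over the 69 genes. Its log2 values were 10.70, 11.23 and 11.42 in WFR and 11.22, 10.51 and 9.40 in WL at 26 °C, and 10.88, 11.25 and 11.23 in WFR and 10.52, 9.80 and 11.12 in WL at 22 °C. The groups overlapped at both temperatures, and differences as large as 0.74 ± 0.376 and 0.64 ± 0.376 were not called (limma, adjusted p = 0.753 and 0.49).

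The second reaction centre gene, psaB, spread little, and its differences lay between -0.05 and 0.06. The small subunit gene psaJ had the lowest far-red difference of any member at 26 °C, -0.40 ± 0.173 (limma, adjusted p = 0.678). Its values there were 10.58, 10.90 and 10.52 in WFR and 10.87, 11.06 and 11.28 in WL, which overlap. At 22 °C psaJ had 10.42, 10.82 and 11.10 in WFR and 11.18, 11.08 and 10.65 in WL, which overlap as well. For ycf4, an assembly factor of photosystem I, the WFR arrays ran from 9.44 over a median of 9.49 to 9.63 and the WL arrays from 8.65 over 9.25 to 9.38. These did not overlap, and the average far-red difference of 0.36 ± 0.097 was not called (adjusted p = 0.0949).

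The cytochrome b6f complex, which passes electrons between the photosystems, had the largest difference of its mean in each of the 4 single comparisons among the complexes with more than 1 gene. Its 6 genes averaged 9.56 ± 0.06 in WFR and 9.31 ± 0.13 in WL at 26 °C, and 9.36 ± 0.04 in WFR and 9.12 ± 0.20 in WL at 22 °C (SD, n = 3 each). All 3 WFR arrays at 26 °C, from 9.49 to 9.61, lay above the other 9, of which 9.42 was the highest. The median far-red difference was 0.26 at 26 °C and 0.20 at 22 °C, against 0.02 and 0.00 over all probe sets. The median warmth difference was 0.23 in WFR and 0.19 in WL, with all 6 genes above 0 in both, against 0.00 and -0.01. None of the 6 was called for warmth (limma). Of these genes petD, petN and petG were among the 7 dimmest members, with means under 8. Those 7 members had far-red medians of 0.46 at 26 °C and 0.38 at 22 °C. The part of probe brightness in the difference of this complex was not tested. The far-red median of the 6 genes at 22 °C was 0.09 without replicate 1 of WL at 22 °C, the array with the lowest chloroplast mean. It was 0.11 with each array's chloroplast mean subtracted. It was 0.30 without replicate 2 of WL at 22 °C. The warmth median in WL was 0.07 without replicate 1 of WL at 22 °C or at 26 °C and 0.12 without replicate 2 of WL at 26 °C.

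The gene behind the far-red calls was petD, which codes for subunit IV. Its log2 values were 7.42, 7.31 and 7.36 in WFR and 6.98, 6.79 and 6.32 in WL at 26 °C. They were 7.24, 6.98 and 7.38 in WFR and 6.49, 6.50 and 6.47 in WL at 22 °C. WFR lay above WL without overlap at each temperature, and over both temperatures the ranges met only at 6.98. The average rise was 0.69 ± 0.0957 (limma, adjusted p = 0.00284), with 0.66 ± 0.135 at 26 °C (0.136) and 0.72 ± 0.135 at 22 °C (0.0332), where petD reached 1.65 times the WL level. The average call stood in all 22 alternatives run, with a highest adjusted p of 0.0117. The call at 22 °C was lost without any of the WL arrays at 22 °C, replicate 1 or 3 of WFR at 22 °C, replicate 2 of WL at 26 °C or replicate 1 or 3 of WFR at 26 °C (adjusted p up to 0.123), and also with quantile normalisation (0.056) and with the replicate number as a block (0.052).

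The small-subunit genes petN and petG had far-red differences above 0 as well, and petL below 0. For petN the values were 8.28, 8.34 and 8.18 in WFR and 8.19, 7.76 and 7.46 in WL at 26 °C, which overlap by a narrow margin, and 7.96, 7.82 and 8.13 in WFR and 6.81, 7.61 and 7.58 in WL at 22 °C, which do not. The differences were 0.46 ± 0.196 and 0.64 ± 0.196 (limma, adjusted p = 0.668 and 0.175), and with warmth in WL 0.47 (0.327), the highest of any member in that comparison. For petG the values were 7.48, 7.22 and 7.17 in WFR and 7.02, 6.99 and 6.34 in WL at 26 °C, without overlap, and 7.08, 6.90 and 6.99 in WFR and 6.19, 6.93 and 6.71 in WL at 22 °C, with overlap. Its far-red differences were 0.50 and 0.38, neither called. For petL the values were 8.50, 8.60 and 8.30 in WFR and 8.43, 8.65 and 8.96 in WL at 26 °C, and 8.08, 8.32 and 8.05 in WFR and 8.11, 8.67 and 8.56 in WL at 22 °C. These overlap at both temperatures, and the differences of -0.21 and -0.29 were not called (adjusted p = 0.838 and 0.416).

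The genes of both cytochromes, petA and petB, had far-red differences near 0. The petB gene, for cytochrome b6, had 13.67, 13.71 and 13.74 in WFR and 13.61, 13.66 and 13.68 in WL at 26 °C, and 13.48, 13.65 and 13.63 in WFR and 13.68, 13.65 and 13.51 in WL at 22 °C. The groups overlapped and the far-red differences were 0.06 ± 0.0693 and -0.02 ± 0.0693. For petA, which codes for cytochrome f, they were 0.05 and 0.01.

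**Figure D3:**
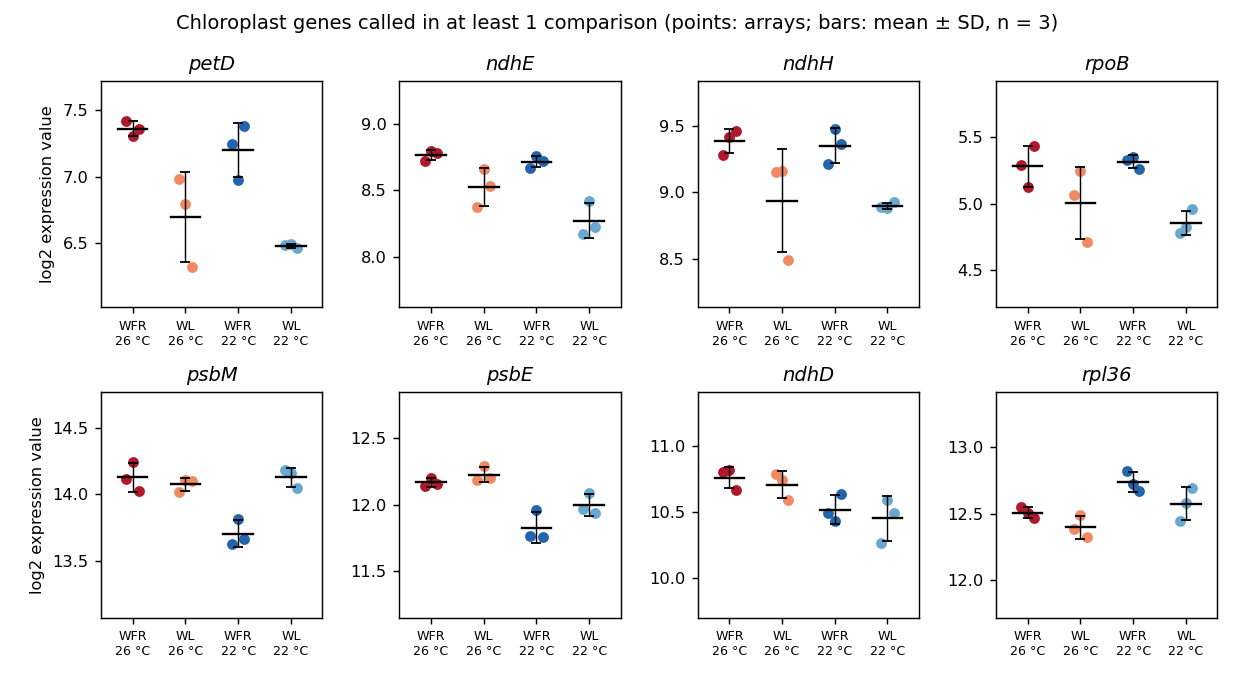
Log2 values of the 8 genes called in at least 1 comparison, by group (points: arrays; bars: mean ± SD, n = 3; every panel spans the same number of log2 units). For petD, ndhE and ndhH the WFR points lie above the WL points at each temperature, for psbM the WFR points at 22 °C lie below all others, and for psbE the points at 26 °C lie above those at 22 °C.

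The NDH complex, which carries electrons around photosystem I, held 10 of the 69 members and 3 of the 8 genes called in any comparison. Averaged over the other factor, 2 of its 10 genes were called for far-red (against 1.12% of all probe sets) and 1 for warmth (against 5.39%). Its genes averaged 10.88 ± 0.05 in WFR and 10.75 ± 0.09 in WL at 26 °C, and 10.77 ± 0.08 in WFR and 10.67 ± 0.09 in WL at 22 °C (SD, n = 3 each). All 10 lay above 0 for far-red at 26 °C, with a median of 0.10, and for warmth in WFR, with a median of 0.10. Of the 69 members 72.5% and 63.8% lay above 0 in these 2 comparisons, and of all probe sets 56.7% and 51.2%. These comparisons share the WFR arrays at 26 °C. At 22 °C 6 of 10 were above 0 for far-red, with a median of 0.02, and in WL 7 of 10 for warmth, with a median of 0.04. Subtracting each array's chloroplast mean takes out, by construction, any shift shared by the 69 genes. The far-red median at 26 °C was then -0.01 and the warmth median in WFR 0.04. Leaving out 1 array moved the warmth median in WFR to 0.04 (replicate 1 of WFR at 22 °C), 0.06 (replicate 2 of WFR at 26 °C) or 0.16 (replicate 3 of WFR at 26 °C), and the far-red median at 26 °C to 0.15 (replicate 2 of WL). The far-red median at 22 °C changed sign without replicate 1 of WL or replicate 3 of WFR there, to -0.01 in both cases.

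The membrane subunit gene ndhE had log2 values of 8.72, 8.80 and 8.78 in WFR and 8.37, 8.66 and 8.53 in WL at 26 °C, and of 8.67, 8.76 and 8.72 in WFR and 8.17, 8.42 and 8.22 in WL at 22 °C. All 6 WFR arrays lay above all 6 WL arrays. The gene rose by 0.45 ± 0.0834 at 22 °C (limma, adjusted p = 0.0321) and by 0.35 ± 0.059 on average (0.0118), and the difference at 26 °C was 0.25 ± 0.0834 (0.537). The average call stood without any 1 array (adjusted p up to 0.0425) but not without replicate 1 of WL at 22 °C and replicate 3 of WL at 26 °C together (difference 0.32, adjusted p = 0.0525) or with each array's chloroplast mean subtracted (0.25, adjusted p = 0.0788). The call at 22 °C was lost without any WFR array at 22 °C, replicate 1 or 3 of WL at 22 °C or replicate 1 of WFR at 26 °C (up to 0.0937), and with array medians subtracted (0.0548), each array's chloroplast mean subtracted (0.14) or array weights (0.0526).

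For ndhH, a subunit of the stromal arm, the values were 9.28, 9.41 and 9.46 in WFR and 9.15, 9.16 and 8.49 in WL at 26 °C, and 9.21, 9.47 and 9.36 in WFR and 8.89, 8.88 and 8.92 in WL at 22 °C. Here too the WFR arrays lay above the WL arrays throughout, with 8.49 in replicate 3 of WL at 26 °C as the lowest. The average rise was 0.45 ± 0.0996 (limma, adjusted p = 0.0469), and it was 0.45 at each temperature (0.469 and 0.181). The average call was lost under all 4 other scalings (adjusted p from 0.0645 to 0.0787) and without any 1 array of WFR at 26 °C, WFR at 22 °C or WL at 22 °C (up to 0.129), as well as with each array's chloroplast mean subtracted (0.0609) and with the replicate block (0.0747).

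The membrane subunit gene ndhD moved with temperature. Its values were 10.80, 10.81 and 10.67 in WFR and 10.79, 10.74 and 10.59 in WL at 26 °C, and 10.49, 10.43 and 10.64 in WFR and 10.27, 10.59 and 10.49 in WL at 22 °C. The arrays at 26 °C ran from 10.59 over a median of 10.76 to 10.81 and those at 22 °C from 10.27 over 10.49 to 10.64, so that the ranges overlapped narrowly. The average rise was 0.25 ± 0.0647 (limma, adjusted p = 0.0395). It was lost without replicate 1 or 2 of WFR at 26 °C, of WL at 26 °C or of WFR at 22 °C, and without replicate 1 or 3 of WL at 22 °C (up to 0.0973), and with each array's chloroplast mean subtracted (0.107) or the replicate block (0.0674). A further membrane subunit gene, ndhF, had 7.73, 7.81 and 7.43 in WFR and 7.67, 7.62 and 7.50 in WL at 26 °C, and 7.58, 7.42 and 7.59 in WFR and 7.32, 7.66 and 7.68 in WL at 22 °C. All its groups overlapped and its differences ran from -0.02 to 0.13.

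The ATP synthase genes showed no call, and averaged 11.78 ± 0.04 in WFR and 11.71 ± 0.05 in WL at 26 °C, and 11.77 ± 0.06 in WFR and 11.61 ± 0.17 in WL at 22 °C (SD, n = 3 each). In the CF1 part, which makes ATP, atpB had 14.29, 14.23 and 14.30 in WFR and 14.25, 14.29 and 14.30 in WL at 26 °C, and 14.27, 14.29 and 14.30 in WFR and 14.29, 14.36 and 14.24 in WL at 22 °C. It was the steadiest member, with an SD within groups of 0.0393, at a signal near the bright end of the array. In the membrane part, atpF had 10.00, 10.01 and 10.08 in WFR and 9.79, 9.90 and 9.80 in WL at 26 °C, and 10.04, 10.14 and 9.99 in WFR and 9.31, 9.62 and 9.94 in WL at 22 °C. All WFR arrays of atpF lay above all WL arrays, and its average far-red difference of 0.32 ± 0.083 was not called (limma, adjusted p = 0.0875).

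The rbcL gene codes for the large subunit of Rubisco, which fixes carbon dioxide. Its values were 12.33, 12.46 and 12.40 in WFR and 12.39, 12.26 and 12.19 in WL at 26 °C, which overlap, and 12.55, 12.55 and 12.48 in WFR and 11.91, 12.43 and 12.40 in WL at 22 °C, which do not. The far-red difference at 22 °C was 0.28 ± 0.113 (limma, adjusted p = 0.3). It was 0.11 without replicate 1 of WL at 22 °C, the lowest array for rbcL. With warmth the difference was -0.13 in WFR (0.665) and 0.03 in WL (0.937).

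The ribosomal protein genes of the chloroplast had warmth medians slightly below 0, as did the RNA polymerase genes (-0.03 in WFR and -0.07 in WL) and the 5 other genes (-0.03 and -0.05). The large subunit genes had medians of -0.04 in WFR and -0.09 in WL, with 5 of 7 below 0 in each, and the small subunit genes of -0.01 in both, with 5 of 8 and 4 of 8 below 0. Of these ribosomal medians, that of the large subunit in WL kept its sign without any 1 array, that in WFR was 0.00 without replicate 3 of WFR at 26 °C, and those of the small subunit reached 0.05 in WFR without the same array and 0.02 in WL without replicate 2 of WL at 22 °C. With 1 array left out, the RNA polymerase medians reached as much as 0.04 in WFR and 0.02 in WL. The median of the 5 other genes reached 0.002 in WFR and stayed below 0 in WL. The difference between complexes was not tested. The large subunit genes averaged 11.93 ± 0.07 in WFR and 11.84 ± 0.05 in WL at 26 °C, and 11.96 ± 0.02 in WFR and 11.91 ± 0.14 in WL at 22 °C (SD, n = 3 each). The far-red medians were 0.06 at 26 °C for each subunit. At 22 °C they were 0.02 for the large subunit, or -0.04 without replicate 1 of WL, and -0.06 for the small subunit.

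The large subunit gene rpl36 was the member called lower at 26 °C. Its values were 12.55, 12.50 and 12.47 in WFR and 12.38, 12.49 and 12.32 in WL at 26 °C, and 12.82, 12.72 and 12.67 in WFR and 12.45, 12.59 and 12.70 in WL at 22 °C. The arrays at 26 °C ran from 12.32 over a median of 12.48 to 12.55 and those at 22 °C from 12.45 over 12.68 to 12.82, which overlap, although in WFR alone they did not. The average change with warmth was -0.20 ± 0.0544 (limma, adjusted p = 0.0432), with -0.23 in WFR (0.171) and -0.18 in WL (0.347). This call was lost with quantile normalisation and cyclic loess (up to 0.0738), with the replicate block (0.0748), and without any 1 array other than replicate 1 of WL or replicate 3 of WFR at 22 °C (up to 0.102).

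Among the other ribosomal genes, rps16 had the lowest warmth difference in WL, -0.36 ± 0.101 (limma, adjusted p = 0.131), with 9.03, 9.23 and 9.19 at 26 °C and 9.35, 9.44 and 9.75 at 22 °C. In WFR it had 9.27, 9.31 and 9.22 at 26 °C and 9.23, 9.49 and 9.25 at 22 °C, so that the groups were apart in WL and overlapped in WFR. For rps19 the WL values were 12.13, 12.22 and 12.17 at 26 °C and 12.25, 12.48 and 12.47 at 22 °C, apart as well, with a difference of -0.22 (0.198). In WFR rps19 had 12.22, 12.28 and 12.18 at 26 °C and 12.25, 12.14 and 12.22 at 22 °C, which overlap. For rpl16 the WL values were 12.35, 12.42 and 12.36 at 26 °C and 12.42, 12.57 and 12.75 at 22 °C, and the WFR values 12.50, 12.41 and 12.41 at 26 °C and 12.45, 12.50 and 12.62 at 22 °C. The rpl16 arrays met or overlapped in both lights, and the difference was -0.20 in WL (0.32) and -0.08 in WFR.

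Other ribosomal genes had far-red differences in either direction. The rpl20 gene had the highest far-red differences of the large subunit, with 9.17, 9.07 and 8.87 in WFR and 8.79, 8.79 and 8.51 in WL at 26 °C, and 8.99, 8.91 and 9.11 in WFR and 8.07, 8.78 and 8.99 in WL at 22 °C. Its groups were apart at 26 °C and overlapped at 22 °C, where replicate 1 of WL was lowest, and neither difference was called, at 0.34 ± 0.176 and 0.40 ± 0.176 (limma, adjusted p = 0.758 and 0.357). In the small subunit, rps15 had differences of 0.21 and 0.28 with overlap at both temperatures, uncalled as well (0.862 and 0.498). For rpl14, with 12.78, 12.74 and 12.54 at 26 °C and 12.86, 12.87 and 12.71 at 22 °C in WFR, the warmth difference was -0.13 (limma, adjusted p = 0.526). These overlap, as do its WL values, at 12.66, 12.70 and 12.75 at 26 °C and 12.67, 12.81 and 12.89 at 22 °C. For rps14 the values were 8.02, 7.63 and 7.89 in WFR and 7.48, 7.48 and 7.12 in WL at 26 °C, apart, and 7.57, 7.34 and 7.66 in WFR and 7.05, 7.46 and 7.39 in WL at 22 °C, overlapping. Its far-red difference was 0.48 ± 0.134 at 26 °C (0.384). The rps2 gene had 11.02, 10.87 and 10.80 in WFR and 10.98, 11.01 and 11.29 in WL at 26 °C, and 10.99, 10.97 and 11.01 in WFR and 10.88, 11.10 and 11.24 in WL at 22 °C, with a far-red difference of -0.20 at 26 °C (0.753). The rps4 values were steady, at 13.70, 13.78 and 13.69 in WFR and 13.68, 13.70 and 13.66 in WL at 26 °C, and 13.71, 13.81 and 13.70 in WFR and 13.66, 13.74 and 13.59 in WL at 22 °C.

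Of the 4 genes for the core of the plastid-encoded RNA polymerase, rpoB, for the beta subunit, was called. The 4 genes averaged 9.78 ± 0.08 in WFR and 9.69 ± 0.10 in WL at 26 °C, and 9.80 ± 0.09 in WFR and 9.72 ± 0.11 in WL at 22 °C (SD, n = 3 each). The rpoB values were 5.29, 5.12 and 5.43 in WFR and 5.06, 5.24 and 4.71 in WL at 26 °C, which overlap, and 5.33, 5.35 and 5.26 in WFR and 4.78, 4.83 and 4.96 in WL at 22 °C, which do not. The average far-red rise was 0.37 ± 0.0816 (limma, adjusted p = 0.0469), with 0.28 at 26 °C (0.659) and 0.46 at 22 °C (0.0981). The signals of rpoB were dim, and 4.71 was the lowest value of any member. The call was lost with array medians or upper quartiles subtracted (up to 0.0784), without replicate 1 or 3 of WFR or of WL at 26 °C, and without any WFR array or replicate 1 or 2 of WL at 22 °C (up to 0.132), and with each array's chloroplast mean subtracted (0.0953) or the replicate block (0.092). The other 3 genes had smaller far-red differences. For rpoA, the alpha subunit, the values were 13.08, 13.14 and 12.88 in WFR and 12.95, 13.12 and 13.15 in WL at 26 °C, and 13.17, 13.13 and 12.63 in WFR and 13.15, 13.22 and 13.17 in WL at 22 °C. Its far-red differences were -0.04 and -0.20, those of rpoC1 -0.01 and -0.08, and those of rpoC2 0.13 at both temperatures.

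Among the other 5 genes, accD, for a subunit of the acetyl-CoA carboxylase of fatty acid synthesis, came closest to a call. Its values were 10.21, 10.20 and 10.13 in WFR and 9.99, 9.97 and 9.86 in WL at 26 °C, and 10.19, 10.30 and 10.23 in WFR and 9.40, 9.93 and 9.98 in WL at 22 °C. All WFR arrays lay above all WL arrays, and the average far-red difference was 0.36 ± 0.0832 (limma, adjusted p = 0.0575). The clpP gene, for a subunit of the Clp protease, had 13.41, 13.43 and 13.42 in WFR and 13.44, 13.42 and 13.41 in WL at 26 °C, and 13.37, 13.47 and 13.45 in WFR and 13.37, 13.49 and 13.56 in WL at 22 °C. Its groups overlapped and its differences lay between -0.05 and 0.00.

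**Figure D4:**
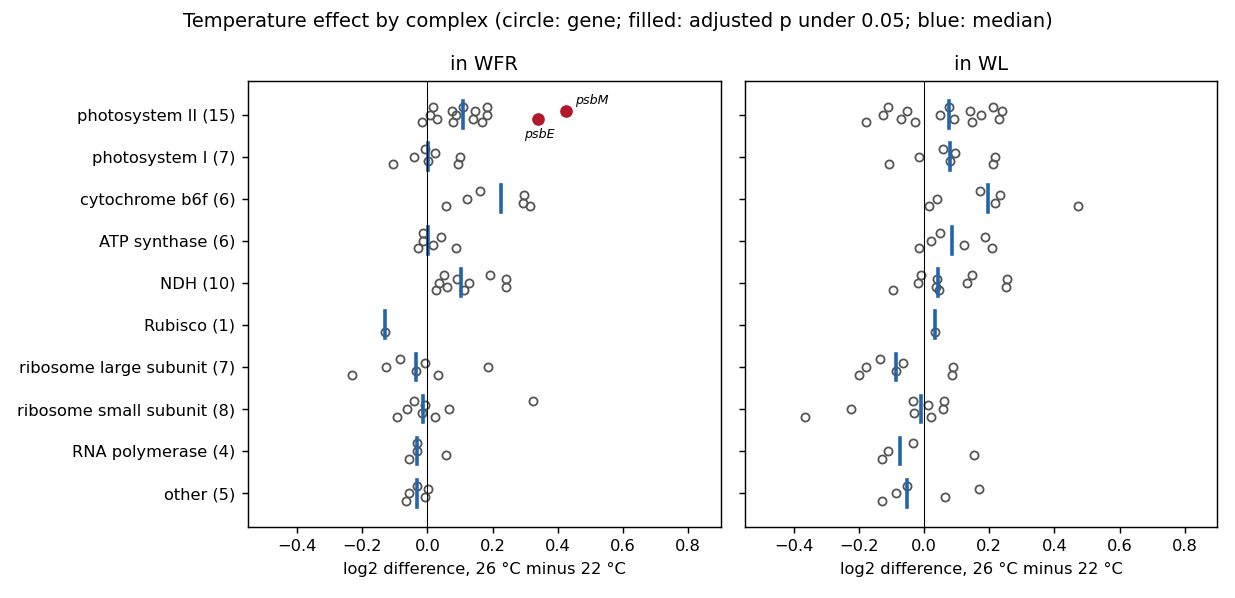
Log2 difference, 26 °C minus 22 °C, of each of the 69 genes in WFR (left) and WL (right), arranged by complex with the number of genes in parentheses. Filled circles mark adjusted p under 0.05 (psbM and psbE in WFR, none in WL) and blue bars mark medians; all 6 cytochrome b6f genes lie above 0 in both lights and 14 of 15 photosystem II genes do so in WFR.

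Genes that neighbour each other on the chloroplast genome, and that textbooks give as transcribed together, were set side by side in groups chosen after the values were seen. In the group of psbB, psbT, psbH, petB and petD, the average far-red difference was 0.69 for petD and 0.43 for psbB (limma, adjusted p = 0.0954), while psbT, psbH and petB had -0.03, 0.07 and 0.02. The psbN gene, which lies between psbT and psbH on the other strand, had 0.30. In the group of psbE, psbF, psbL and psbJ, all 4 genes lay above 0 with warmth in each light, with medians of 0.18 in WFR and 0.16 in WL. The far-red medians of these 4 were -0.08 at 26 °C and -0.18 at 22 °C, and psbE was the only one of them called, for warmth. In the group from ndhH to ndhD, which includes psaC, all 7 lay above 0 for far-red at 26 °C and for warmth in WFR. The average far-red differences there were 0.45 for ndhH and 0.35 for ndhE. They were -0.01 for ndhA, 0.02 for ndhI and 0.05 for ndhG, which lie between ndhH and ndhE. The psaC gene of this group averaged 8.17 in WFR and 7.86 in WL.

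The adjacent genes petN and psbM went in opposite directions for far-red at 22 °C, at 0.64 and -0.43. The group of 7 genes from rps19 to rpoA, most of them ribosomal, had no gene above 0 with warmth in WL and a median of -0.13, and 3 of 7 above 0 in WFR with a median of -0.04. In the pair atpB and atpE, far-red and warmth differences all lay between -0.02 and 0.04. In the group of psaA, psaB and rps14, the average far-red differences were 0.69, -0.04 and 0.35. A probe set reads 1 stretch of a transcript, and different processing of the transcript's parts and different performance of the probe sets cannot be told apart here.

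**Figure D5:**
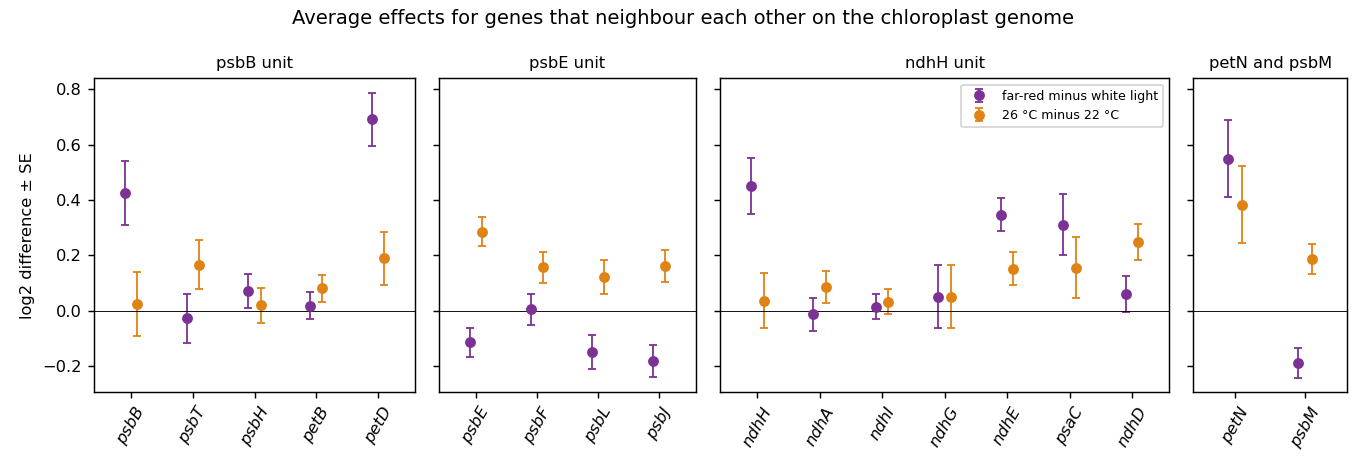
Average log2 differences ± SE for genes in their order on the chloroplast genome, far-red minus white light (purple) and 26 °C minus 22 °C (orange). Within the psbB and ndhH groups the far-red difference is near 0 for some genes and well above 0 for others. The 4 genes of the psbE group all lie above 0 for warmth.

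The far-red differences also varied with the brightness of the probe sets. Across the 69 genes, Pearson's r between a gene's mean log2 value and its difference was -0.48 for far-red at 26 °C and -0.54 at 22 °C, and for warmth -0.22 in WFR and -0.43 in WL. These are descriptions across genes that share the same 12 arrays. At 22 °C the median far-red difference was 0.38 for the 7 genes with a mean under 8, 0.36 for the 14 from 8 to 10, 0.05 for the 17 from 10 to 12 and -0.03 for the 31 at 12 or more. Over all probe sets the same bands had medians of -0.01, 0.03, 0.00 and -0.02. The 7 dimmest were petD, petN, petG, rpoB, ndhF, rps14 and atpI, and the part of probe brightness in their differences was not tested.

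The nuclear genes that serve the same complexes gave little to set beside them. Of 70 nuclear genes written, 10 had a named probe set: PSAE-1, PSAN, PSBW, PSBY, ATPC1, NdhL, NdhN, NdhS, AT2G26500 of the cytochrome b6f list and the phage-type polymerase gene AT5G15700. None was called in any of the 7 comparisons (limma). For far-red averaged over both temperatures, all 10 lay below 0, with a median of -0.05, where 54.1% of all probe sets lay above 0. At an unadjusted p under 0.05, 2 of the 10 were lower, against 5.13% of all probe sets (limma). For warmth averaged over both lights 8 of 10 lay above 0 (against 47.1% of all probe sets), with a median of 0.05. There 2 were higher and 1 lower at an unadjusted p under 0.05, against 9.46% and 9.86% of all probe sets. A difference between these nuclear genes and the chloroplast genes was not tested. The 6 sigma factor genes, the 12 polymerase-associated proteins and the 4 Rubisco small subunit genes had no named probe set and are not analysed here.

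The 11 genes of the mitochondrial genome, whose transcripts likewise mostly lack stable poly(A) tails, averaged 6.06 ± 0.02 in WFR and 5.92 ± 0.04 in WL at 26 °C, and 5.97 ± 0.05 in WFR and 5.95 ± 0.01 in WL at 22 °C (SD, n = 3 each). These means lay below the array medians of 6.91 to 7.01, and only nad4 and cox1 had group means above those medians. The dimmest gene, matR, averaged 4.09 to 4.19 by group, where the lowest values of the arrays were 3.34 to 3.41. The median far-red difference of the 11 genes was 0.15 at 26 °C, with 9 of 11 above 0, and 0.03 at 22 °C, with 6 of 11. With warmth all 11 lay above 0 in WFR, with a median of 0.08, and 7 of 11 in WL, with a median of 0.03. None was called (limma). At an unadjusted p under 0.05 there were 2 of 11 higher for far-red at 26 °C (against 4.49% of all probe sets), 1 at 22 °C (7.85%) and 3 on average (9.38%), where 10 of 11 lay above 0. For warmth there was 1 higher in WFR (6.96%) and 1 higher and 1 lower in WL (6.29% and 6.55%), and for the interaction 2 were higher (3.07%). A difference between the mitochondrial and the chloroplast genes was not tested.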

How the data were processed

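The deposited table holds log2 expression values, 1 per probe set and array, already normalised by the authors. Per the submitters' processing notes, the tools were RMA, affy and MAS5 (no version stated), and the sources used here do not say which of them gave the values. Of 22810 probe sets, 64 controls were left out. Genes came from the platform's annotation (13513 with 1 gene, 503 with several, 8730 unnamed here), updated through RefSeq records of the TAIR10.1 assembly, which served for names and gene order only, since no genome build is named for the array. The table had 0 columns without a sample.

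All 12 arrays entered 1 linear model, with a mean for each condition (limma 3.58.1 under R 4.3.3, functions lmFit and eBayes with no trend; 8 residual and 5.99 prior degrees of freedom). The two-sided p-values were adjusted after Benjamini-Hochberg over 22746 probe sets, and an adjusted p under 0.05 was a call. Average effects weight both levels of the other factor equally. Errors of differences are the model's SE. Array signals carry no read depth, precision is limited by the number of arrays, and p-values measure the spread between these arrays alone. The fit was tested on simulated data.

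Arrays with the same replicate number did not deviate together, so no block was used. The mean correlation over 18 pairs was -0.0526 for all probe sets and -0.0977 for the chloroplast genes. Members and lists were chosen with earlier results of these data known. Array values are given for called members, the 3 largest rises and falls of each single comparison and the interaction, and psaA, psbA, psbD, petB, atpB, ndhF, rbcL, rpoB, rps4, accD and clpP. Other genes named were chosen after their values were seen.

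Alternatives were array medians, upper quartiles, quantile normalisation or cyclic loess in place of the deposited scale, each array's chloroplast mean subtracted, the lowest 25% or 50% of probe sets left out, trend with robust moderation, array weights, the replicate number as a block, only the groups compared, and each array left out. Leaving out both WL arrays with the lowest chloroplast means was added after seeing the data.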

Additional observations from a re-analysis of the deposited data

How the results depend on the processing

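The counts of called chloroplast genes were small and moved with the processing, and no call of a named gene changed direction in any alternative run. The average far-red call of petD stood in 22 of 22 alternatives. The average warmth call of psbE stood in 22 of 23 and the average far-red call of ndhE in 21 of 23. The other 9 calls stood in 8 to 18 of 22 to 24. Leaving out the lowest 50% of probe sets removed petD and rpoB, so that their calls could not be tested there. For far-red at 22 °C, 3 genes were called, with 0 to 5 when 1 array was left out, 1 without both low WL arrays and 0 in a fit of the compared groups only, where the calls over all probe sets were 65 and 10 in place of 150. At 26 °C array weights gave 1 call in place of 0, with 71 calls over all probe sets in place of 20. For warmth in WL they gave 2 in place of 0, with 1614 over all probe sets in place of 139; leaving out an array gave 0 in both. For warmth in WFR, 2 were called, with 0 to 2 when 1 array was left out, 0 with each array's chloroplast mean subtracted, 1 without both low arrays and 0 in the fit of the compared groups only (165, 240 and 147 over all, in place of 250). For the average far-red effect, 4 were called, with 2 to 6 when 1 array was left out, 10 with array weights (835 over all probe sets, in place of 255), and 2 each with array medians, upper quartiles or chloroplast means subtracted (256, 215 and 263 over all) and without both low arrays (148). For the average warmth effect, 3 were called, with 1 to 4 when 1 array was left out, 1 with chloroplast means subtracted, and 5 each with the lowest 50% of probe sets left out and with trend and robust moderation (836, 1536 and 1432 over all, in place of 1227). The interaction gave 0 throughout. With the replicate block the average far-red count was 2 and the average warmth count 1 (172 and 933 over all). The numbers did not pair the arrays: over all probe sets 1 of 18 same-numbered pairs correlated above 0.1. Over the chloroplast genes 4 of 18 did, against 13 of 36 pairs with other numbers. With array medians subtracted, the calls over all probe sets for far-red at 22 °C were 57 higher and 103 lower, in place of 108 higher and 42 lower. The mean over several probe sets of a gene was not run, since each gene had 1. The cause of these shifts was not tested. The deposited values carry no detection calls, so that signal over background was not judged.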
